A study of Mus musculus with 16 samples.

Results

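The collagen crosslinking and hydroxylation enzymes were followed as 10 genes chosen by name from the 48440 genes of the count table: the lysyl oxidases Lox, Loxl1, Loxl2, Loxl3 and Loxl4, the lysyl hydroxylases Plod1, Plod2 and Plod3, and the prolyl 4-hydroxylase alpha subunits P4ha1 and P4ha2. All 10 passed the low-count filter that left 17604 genes for testing. The samples were ear skin of B6 mice, taken as whole tissue from 1 mouse each, in 4 groups of 4: normal diet with untreated ears (ND), high-fat diet with untreated ears (HFD), normal diet with PMA (ND+PMA) and high-fat diet with PMA (HFD+PMA). The high-fat diet was given for 8 weeks, and phorbol 12-myristate 13-acetate (PMA), an activator of protein kinase C used to inflame skin, was applied at 200 ng per ear, with ears collected 24 h later. No genotype beyond the strain is labelled, and the sources used here do not give the sex or age of the mice or any vehicle on the untreated ears.

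Collagen chains are modified inside the endoplasmic reticulum before they fold into a triple helix. Prolyl 4-hydroxylase, a tetramer of alpha subunits (P4ha1 or P4ha2 among them) and the beta subunit P4hb, makes the hydroxyproline that holds the helix together, and the lysyl hydroxylases make the hydroxylysine on which stable crosslinks and sugars are built; both enzyme families need iron, oxygen, 2-oxoglutarate and ascorbate. After secretion, the copper-dependent lysyl oxidases oxidise lysines of collagen and elastin to aldehydes, which then crosslink neighbouring molecules, and in skin this sets the strength and recoil of the dermis.

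RefSeq promoter entries (GRCm38.p6, 250 bases before to 50 after the gene's start) were found for 5 of the 10 genes: Loxl4, Plod1, Plod3, P4ha1 and P4ha2. The sequences of the 3 of them that passed the test in some comparison below are printed 5′ to 3′ on the gene's strand, with capitals marking each match to ACGTG or GCGTG, the core of the hypoxia-response element, read on both strands (CACGT or CACGC on the other); CACGTG would match on both. They were set beside the values because all 3 genes differed between groups. In RefSeq's coordinates they lie at chr11:54100674-54100973 (P4ha2, plus strand), chr19:42612757-42613056 (Loxl4, minus strand) and chr5:136986769-136987068 (Plod3, plus strand).
P4ha2: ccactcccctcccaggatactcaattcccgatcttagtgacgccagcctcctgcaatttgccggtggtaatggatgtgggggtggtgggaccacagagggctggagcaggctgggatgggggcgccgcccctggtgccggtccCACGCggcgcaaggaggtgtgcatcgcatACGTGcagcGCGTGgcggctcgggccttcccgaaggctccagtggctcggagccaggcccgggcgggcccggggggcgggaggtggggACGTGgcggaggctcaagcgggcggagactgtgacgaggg
Loxl4: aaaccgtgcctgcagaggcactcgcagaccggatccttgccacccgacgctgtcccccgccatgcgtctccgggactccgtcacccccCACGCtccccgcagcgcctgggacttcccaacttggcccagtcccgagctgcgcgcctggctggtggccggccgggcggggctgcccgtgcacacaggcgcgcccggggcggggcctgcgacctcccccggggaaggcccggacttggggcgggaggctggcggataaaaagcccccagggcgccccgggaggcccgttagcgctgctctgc
Plod3: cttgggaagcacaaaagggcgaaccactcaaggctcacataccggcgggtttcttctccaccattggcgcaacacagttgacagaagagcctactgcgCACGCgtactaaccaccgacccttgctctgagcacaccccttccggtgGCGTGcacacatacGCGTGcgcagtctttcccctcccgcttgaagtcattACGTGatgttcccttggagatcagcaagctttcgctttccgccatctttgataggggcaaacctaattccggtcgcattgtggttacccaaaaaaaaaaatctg
The P4ha2 and Plod3 windows each held 4 matches, that of P4ha1 held 3, that of Plod1 held 2 and that of Loxl4 held 1. For comparison, 43.8% of all 32851 promoter windows of this length held at least 1 match. These windows were mostly GC-rich, at 70.3% GC for P4ha2, 70.3% for P4ha1, 75.0% for Loxl4, 64.3% for Plod1 and 53.3% for Plod3, against a median of 52.7% over all windows. The phorbol ester response element TGANTCA, which reads the same on both strands and cannot contain the first motif, had 0 matches in the 5 windows and at least 1 match in 7.81% of all windows. A match is a run of letters and not a measured binding site. The P4ha2 window lies inside the gene's annotated interval, downstream of the first of its annotated starts.

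Levels are given as CPM, a gene's count per 1000000 of the scaled total of its library. The 16 libraries held between 7739487 and 15571389 counts assigned to genes. Library identifiers in the labels fall into 2 series, RHS and RHP, which the sources used here do not explain: all 4 ND libraries and HFD replicate 1 are RHS, and the other 11 are RHP. The comparison of ND+PMA with ND is therefore also a comparison of the 2 series, and PMA and series cannot be told apart there. The markers of fibroblasts, the main source of dermal collagen, were all detected in every group, with a summed level of 2808 to 4158 CPM in ND, 2550.5 to 2978 in HFD, 2196 to 2916 in ND+PMA and 1796 to 2626 in HFD+PMA. Epidermal keratinocyte markers summed to 15584.5 to 19146 CPM in ND, 21755 to 26099 in HFD, 22159 to 26016 in ND+PMA and 28045 to 30988 in HFD+PMA. In whole tissue, fewer cells of a type and less RNA per cell cannot be told apart.

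Compared per kilobase of exon, Loxl1 and Lox had the highest means of the 10 transcripts in each of the 4 groups. In ND skin, Loxl1 stood at 23.5 ± 9.87 CPM per kb (SD, n = 4) and Lox at 22.6 ± 2.52, with overlapping ranges. Loxl4 followed at 14.5 ± 2.21, below every Lox library and above every Plod1 library. Plod1, P4ha1, Loxl3, P4ha2, Plod3 and Loxl2 came next, from 9.03 down to 3.52 CPM per kb, each overlapping its neighbour in that order. Plod2, the lysyl hydroxylase of the telopeptides, was lowest at 1.04 ± 0.440 and did not overlap Loxl2. In GRCm38 annotation the genes that passed a test are Lox (ENSMUSG00000024529), P4ha2 (ENSMUSG00000018906, chr11:54100095-54131665, plus strand, 21 merged exons), Loxl4 (ENSMUSG00000025185, chr19:42593982-42612813, minus strand, 17 merged exons) and Plod3 (ENSMUSG00000004846, chr5:136987019-136996648, plus strand, 17 merged exons), all protein-coding. The order of the middle genes differed between groups: Loxl4 was the third in 3 groups, while in HFD+PMA it stood at 6.01 CPM per kb, behind P4ha1 at 9.21, Plod3 at 8.89 and Loxl3 at 6.52, with overlap between each pair of neighbours. Plod2 was at 0.814 to 1.04 CPM per kb in the 4 groups, and its smallest library count was 11 reads, so its values carry the widest error of the 10.

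**Figure D1:**
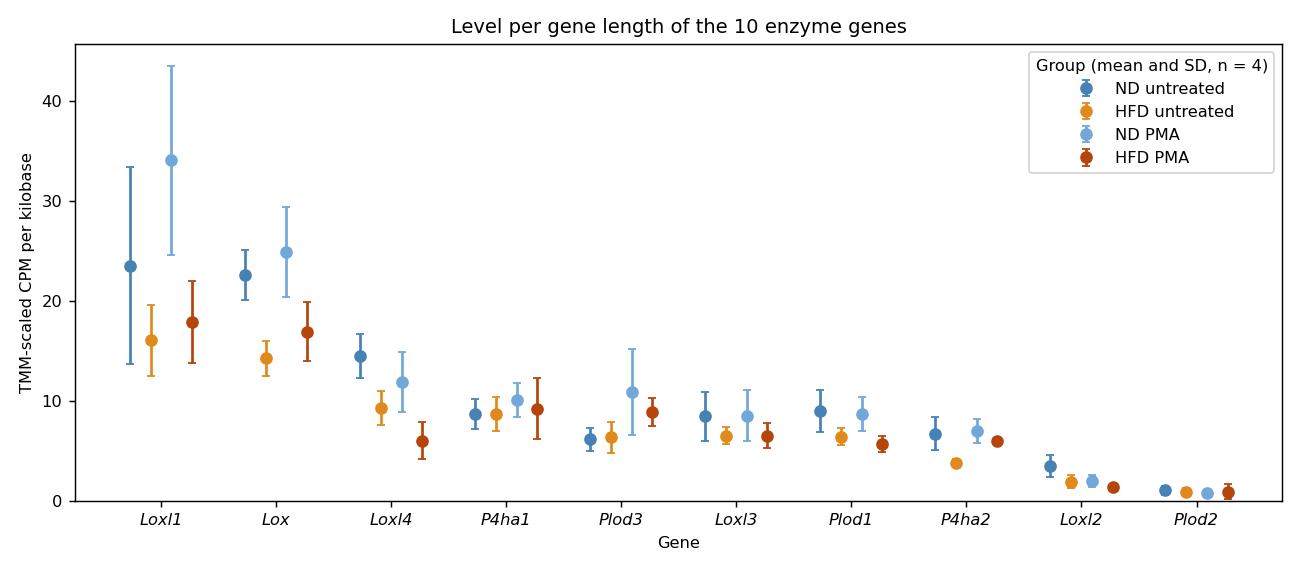
Level of each of the 10 genes per kilobase of exon (CPM per kb), as group mean (point) and SD (bar) of 4 libraries, in the 4 groups. Loxl1 and Lox have the highest means in each group, and Plod2 is lowest in each group, with 1.04 CPM per kb in ND skin.

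The first comparison asked how 8 weeks of high-fat diet altered these transcripts in untreated skin. Lox and P4ha2 fell, and the other 8 did not pass the test. Lox, the founding lysyl oxidase, read 99.8, 124, 98.0 and 113 CPM in the 4 ND libraries and 68.6, 63.2, 62.0 and 80.7 CPM in the 4 HFD libraries. All 4 HFD values were below all 4 ND values. The fitted log2 fold change was -0.67 ± 0.15 (SE; adjusted p = 0.0164, edgeR quasi-likelihood test with Benjamini-Hochberg adjustment over 17604 genes). P4ha2, an alpha subunit of prolyl 4-hydroxylase, read 32.8, 33.5, 53.2 and 48.4 CPM in ND and 25.9, 22.2, 25.6 and 21.0 CPM in HFD. Its groups did not overlap either, with the HFD libraries packed closely and the ND libraries spread in a lower and a higher pair. The log2 fold change was -0.83 ± 0.17 (edgeR adjusted p = 0.00969).

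Of the 10 genes, 2 passed the test as lower and 0 as higher, against 1.06% of all tested genes called lower, 2.87% called higher and 3.93% in either direction. The median log2 fold change of the 10 was -0.52, beside -0.02 over all tested genes, and 9 of 10 had a negative value. Loxl4, a lysyl oxidase-like enzyme with scavenger receptor domains, was the third gene whose groups did not overlap, as 5.46% of all tested genes did in the lower direction: it read 53.1, 53.4, 71.7 and 66.0 CPM in ND and 41.6, 47.3, 36.2 and 30.6 CPM in HFD. Its log2 difference of -0.65 ± 0.23 did not pass (edgeR adjusted p = 0.128). Loxl2 had the largest fitted difference, -0.87 (95% interval -1.46 to -0.28; edgeR adjusted p = 0.0985), from 19.0 ± 5.97 CPM in ND to 10.4 ± 3.34 in HFD, and its lowest ND library lay below its highest HFD library. Loxl1, which acts on elastin, had -0.55 (edgeR adjusted p = 0.270), with ND libraries at 45.8, 68.6, 124 and 75.7 CPM that overlapped the HFD values of 41.8 to 64.5. Plod1, the helix lysyl hydroxylase, had -0.49 (edgeR adjusted p = 0.151), and Loxl3 had -0.38 (edgeR adjusted p = 0.428).

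Plod3, the lysyl hydroxylase that also glycosylates hydroxylysine, and P4ha1, the other alpha subunit, had nearly equal means on the 2 diets. Plod3 averaged 27.8 ± 5.27 CPM in ND and 28.7 ± 7.09 in HFD, a log2 difference of 0.04 with a 95% interval from -0.45 to 0.53. P4ha1 averaged 35.7 ± 6.27 and 35.6 ± 7.06 CPM, and its interval ran from -0.46 to 0.45. For Plod2 the interval was wider, from -1.33 to 0.87. Of these 3 intervals, that of Plod2 alone included the value measured for Lox.

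Library series moves with this comparison. With series as a covariate the estimates were -0.66 for Lox (edgeR adjusted p = 0.306) and -0.69 for P4ha2 (edgeR adjusted p = 0.366), so neither call was kept; that fit rests on HFD replicate 1, the 1 library of its group in the RHS series. That library read 68.6 CPM for Lox and 25.9 CPM for P4ha2, below all 4 ND libraries of the same series in both genes. The covariate also moved other enzymes: Loxl2 was at -0.41 with it, Loxl1 at -0.29, Plod1 at -0.74, Plod2 at -0.86 and P4ha1 at -0.34 (edgeR adjusted p from 0.343 to 0.876). The Lox call was also lost without ND replicate 2 or 4 or HFD replicate 2 or 3 (edgeR adjusted p up to 0.0547), and the P4ha2 call without ND replicate 3 (edgeR adjusted p = 0.0601). Calls gained were Loxl2 in DESeq2 (adjusted p = 0.0435), Loxl4 in a fit of the 8 libraries alone (edgeR adjusted p = 0.0383) and Plod1 without ND replicate 1 (edgeR adjusted p = 0.0482). Loxl1 was at -0.23 without ND replicate 3 (edgeR adjusted p = 0.762).

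**Figure D2:**
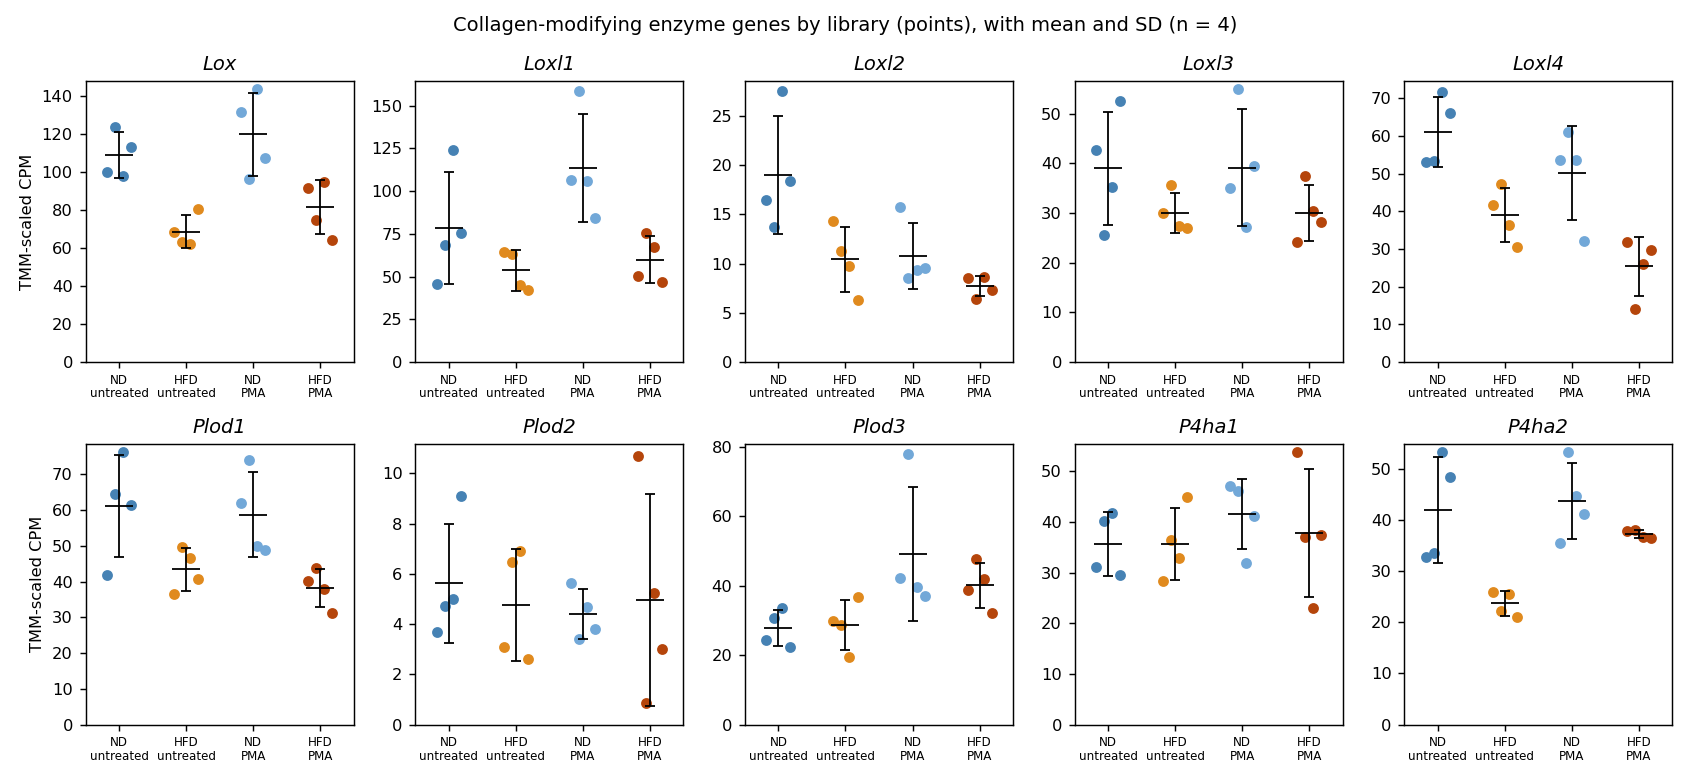
CPM of each of the 10 genes in each library (points) with the group mean and SD (bars) for ND, HFD, ND+PMA and HFD+PMA, 4 libraries each, each panel on its own linear axis from 0. Lox and P4ha2 have all HFD points below all ND points, and the P4ha2 points of HFD+PMA lie together between 36.4 and 37.9 CPM.

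The same diet contrast was made within PMA-treated skin, where all 8 libraries belong to 1 series. Loxl4 fell. It read 53.7, 61.2, 53.7 and 32.1 CPM in ND+PMA and 31.8, 14.1, 25.9 and 29.6 CPM in HFD+PMA. The groups did not overlap, although ND+PMA replicate 4 lay just above the highest HFD+PMA library. The log2 fold change was -0.99 ± 0.23 (edgeR adjusted p = 0.0271). This was 1 gene of 10 called lower and 0 higher, against 1.26% of tested genes called lower, 0.943% higher and 2.2% in either direction. The call was lost without ND+PMA replicate 1, 2 or 3 or HFD+PMA replicate 2 or 3 (edgeR adjusted p up to 0.0959), and in a fit of the 8 libraries alone (edgeR adjusted p = 0.112).

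Lox, Loxl1 and Plod1 also had groups that did not overlap, which makes 4 of 10 with Loxl4, beside 4.71% of tested genes in that direction. Lox read 132, 96.3, 144 and 107 CPM in ND+PMA and 91.8, 75.0, 94.7 and 64.3 CPM in HFD+PMA, a log2 difference of -0.56 ± 0.15 (edgeR adjusted p = 0.0561). Loxl1 read 106, 159, 106 and 84.2 CPM against 50.4, 75.5, 67.0 and 46.6 CPM, a log2 difference of -0.92 ± 0.25 (edgeR adjusted p = 0.0561). Plod1 read 62.1, 74.0, 50.0 and 48.9 CPM against 40.2, 43.7, 38.0 and 31.1 CPM, a log2 difference of -0.62 ± 0.18 (edgeR adjusted p = 0.0815). In these 3 genes each HFD+PMA library was below each ND+PMA library, yet none passed the adjusted threshold in edgeR; DESeq2 called all 3 together with Loxl4, with adjusted p of 0.0248 for Lox, 0.0179 for Loxl1 and 0.0457 for Plod1. The median log2 fold change of the 10 was -0.43, beside -0.03 over all tested genes, and 9 of 10 were negative. P4ha2, called in untreated skin, had -0.23 (95% interval -0.59 to 0.13; edgeR adjusted p = 0.579) under PMA. Loxl2 had -0.48, Loxl3 -0.38, Plod3 -0.29, P4ha1 -0.14 and Plod2 0.17, with edgeR adjusted p from 0.447 to 0.921.

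In the PMA comparison on normal diet, 1 of the 10 genes passed the test: Plod3 rose. It read 24.4, 30.8, 33.6 and 22.4 CPM in ND and 42.3, 78.0, 39.7 and 37.0 CPM in ND+PMA. Each PMA library was above each untreated one, and replicate 2 stood far above the other 3. The log2 fold change was 0.82 ± 0.23 (edgeR adjusted p = 0.0235); 8.96% of tested genes were called higher, 3.99% lower and 12.9% in either direction, and 10.6% of tested genes had groups that did not overlap in the higher direction, so 1 of 10 is near the background on both counts. Without ND+PMA replicate 2 the log2 difference was 0.47 (edgeR adjusted p = 0.152), and the call was also lost without ND replicate 1 or 4. With series as a covariate the estimate was 0.91 (edgeR adjusted p = 0.374). The series term of that fit comes from the HFD group alone, through its replicate 1, and cannot separate PMA from series here. Of the exon bases of Plod3, 11.91% overlap Znhit1 on the other strand or Mir702, and the library kit does not mark strand; Znhit1 itself averaged 6.06 CPM before and 7.62 CPM after PMA on normal diet (log2 difference 0.33, edgeR adjusted p = 0.406).

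Loxl2 went the other way in value, from 19.0 ± 5.97 CPM in ND to 10.8 ± 3.35 in ND+PMA (log2 difference -0.82, 95% interval -1.41 to -0.23; edgeR adjusted p = 0.0632). Its ND libraries read 16.4, 13.7, 27.5 and 18.4 CPM, and its ND+PMA libraries 15.8, 8.49, 9.32 and 9.56 CPM. The overlap came from ND+PMA replicate 1, and without it the log2 difference was -1.06 (edgeR adjusted p = 0.0253). Without ND replicate 3 it was -0.61 (edgeR adjusted p = 0.211). With series as a covariate it was -0.17 (edgeR adjusted p = 0.935), in the fit whose limit was given for Plod3. Loxl1 averaged 78.6 ± 32.9 CPM in ND and 114 ± 31.6 in ND+PMA (log2 difference 0.53; edgeR adjusted p = 0.183). Without ND replicate 3, whose 124 CPM was the highest of its group, the difference was 0.82 (edgeR adjusted p = 0.0342), and without ND+PMA replicate 2 it was 0.29 (edgeR adjusted p = 0.538). Lox, Loxl3, Loxl4, Plod1, Plod2, P4ha1 and P4ha2 had log2 differences from -0.36 to 0.22, with edgeR adjusted p from 0.490 to 0.988. The median of the 10 was 0.03, beside 0.00 over all tested genes.

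In the PMA comparison on high-fat diet, P4ha2 rose. Its HFD libraries, given above, spanned 21.0 to 25.9 CPM, and the HFD+PMA libraries read 37.7, 37.9, 36.6 and 36.4 CPM. The groups were far apart, and the 4 PMA libraries agreed to within a coefficient of variation of 2.10%. That is closer than counting error alone gives on average for their counts of 290 to 477, so it is no measure of precision. The log2 fold change was 0.65 ± 0.17 (edgeR adjusted p = 0.0178), and within RHP libraries alone it was 0.69 (edgeR adjusted p = 0.0153). The call was lost without HFD replicate 2 or 4 or HFD+PMA replicate 2 (edgeR adjusted p up to 0.0793). This was 1 of 10 called, against 7.34% of tested genes called higher, 4.6% lower and 11.9% in either direction; 10.8% had groups that did not overlap in the higher direction. Loxl4 had the lowest value of the 10, -0.63 ± 0.23 (edgeR adjusted p = 0.0862), from 39.0 ± 7.15 to 25.3 ± 7.89 CPM. Plod3 had 0.49 ± 0.23 (edgeR adjusted p = 0.207), with HFD libraries at 29.9, 28.7, 19.5 and 36.7 CPM and HFD+PMA libraries at 38.8, 47.8, 42.0 and 32.1 CPM. The other 7 had log2 differences from -0.43 to 0.25 (edgeR adjusted p from 0.343 to 0.996), and the median of the 10 was 0.06, beside -0.02 over all tested genes.

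These comparisons share groups: both untreated groups and both PMA groups enter a diet and a PMA contrast, so their values are not independent. P4ha2 illustrates this, since its HFD level of 23.7 ± 2.47 CPM is the low point of both its called contrasts, beside 42.0 ± 10.4 in ND, 43.6 ± 7.41 in ND+PMA and 37.2 ± 0.780 in HFD+PMA. Whether the PMA effect depended on diet was tested by the interaction, the PMA log2 fold change in high-fat mice minus that in normal-diet mice. It was called for 0 of the 10 by edgeR and for 0 by DESeq2, with 0.00568% of tested genes (1 gene) called by edgeR. Before adjustment, 1 of the 10 was under 0.05: P4ha2, with an interaction of 0.59 ± 0.24 (edgeR quasi-likelihood test, unadjusted p = 0.0244; adjusted p = 0.999). The intervals of the other 9 all included 0, and the narrowest of them, for Lox, ran from -0.33 to 0.55.

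**Figure D3:**
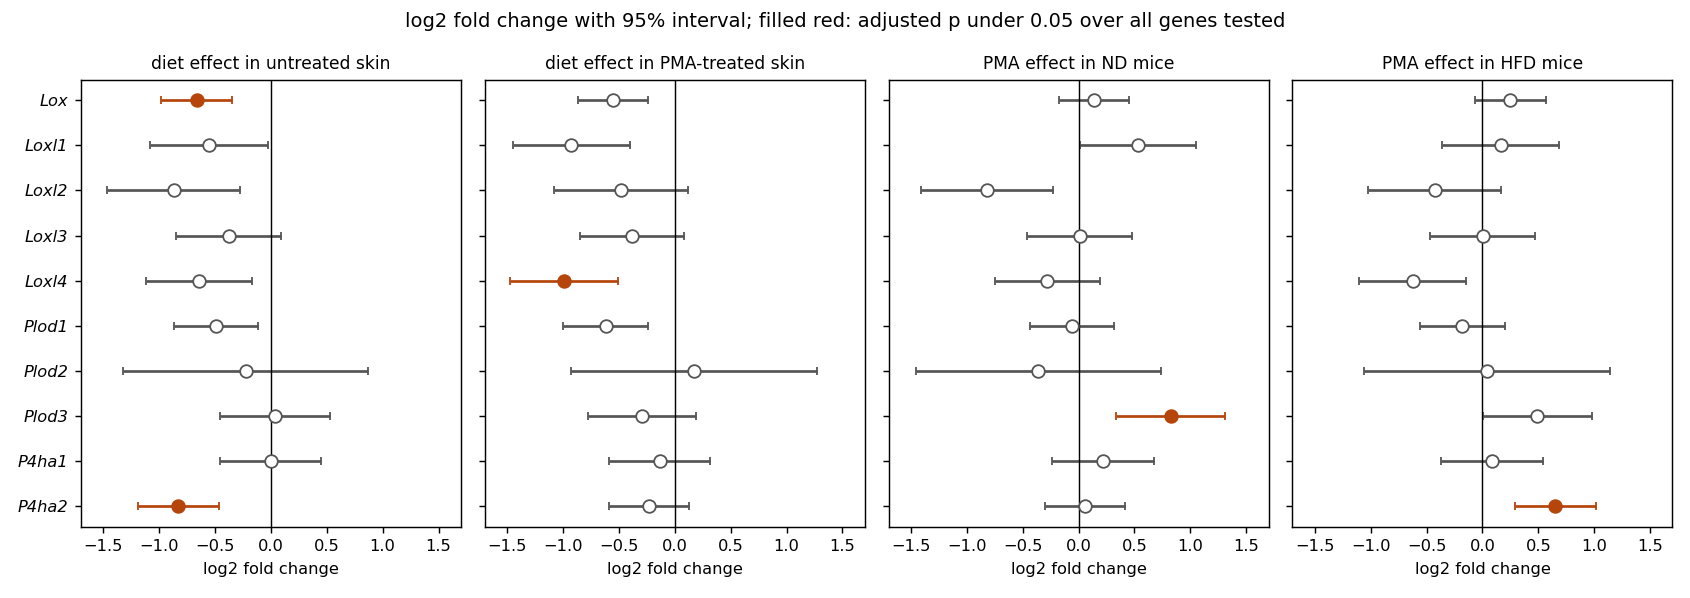
Log2 fold change of each of the 10 genes with its 95% interval in the 2 diet and 2 PMA comparisons, with filled points for edgeR adjusted p under 0.05. The diet panels hold 9 negative values of 10 each, and the PMA panels hold values on both sides of 0, from -0.82 for Loxl2 to 0.82 for Plod3.

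The substrates of these enzymes were followed in lists of other genes of the pathway. List and marker counts are from the fit without library series. They share its limits for diet in untreated skin and for PMA on normal diet. Over all tested genes, 186 were called lower with diet in untreated skin, and 16 with series as a covariate. Small counts are to be read beside the shares of all tested genes given above for each comparison. Fibrillar collagen chains fell with diet in 6 of 9 tested in untreated skin (median log2 fold change -0.80) and in 5 of 9 in PMA-treated skin (median -0.90), with 0 higher in either. Col1a1, the main chain of type I collagen, went from 3000 ± 638 to 1384 ± 257 CPM with diet in untreated skin (log2 -1.12, edgeR adjusted p = 0.00830), and Col5a3, a minor fibril chain, from 37.9 to 16.4 CPM (log2 -1.21, edgeR adjusted p = 0.0124). Under PMA the diet difference was -0.94 for Col1a1 and -1.64 for Col2a1, a cartilage collagen also counted among the cartilage markers. The PMA comparisons had 2 of 9 lower in normal-diet mice and 3 of 9 in high-fat mice, Col1a2 and Col11a2 in both, with Col1a2 at -0.62 and -0.67. Other collagen chains of skin fell with diet in 5 of 13 (Col6a1 -0.70, Col6a2 -0.63, Col16a1 -0.62) and, under PMA, in 7 of 13 (Col6a2 -0.98, Col6a1 -0.90, Col8a1 -0.89). With PMA they fell in 3 of 13 on normal diet and 2 of 13 on high-fat diet, led by Col7a1, the anchoring fibril collagen, at -0.89 and -0.88.

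Among 14 other procollagen-modifying and folding genes, 3 passed the test in some comparison. P4hb, the beta subunit shared by both prolyl 4-hydroxylases and also a general disulfide isomerase, rose from 577 ± 54.6 to 1148 ± 131 CPM in normal-diet mice (log2 0.99) and by 0.90 in high-fat mice, while its diet differences were 0.16 and 0.07 (edgeR adjusted p = 0.575 and 0.854). Serpinh1, the collagen chaperone HSP47, rose with PMA by 0.71 on normal diet and 0.67 on high-fat diet, and fell with diet by 0.70 in untreated and 0.74 in PMA-treated skin (edgeR adjusted p from 0.0125 to 0.0364). Ppib, a collagen prolyl isomerase, rose with PMA on normal diet (0.62) and with diet in untreated skin (0.65). By comparison, the counts were 1 higher and 1 lower with diet in untreated skin, 1 lower with diet under PMA, 3 higher with PMA on normal diet and 2 higher on high-fat diet.

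Procollagen export and trimming genes were called lower in 2 of 10 tested with diet, in 1 of 10 with diet under PMA, and in 4 and 2 of 10 with PMA on normal and high-fat diet, with 0 higher. Adamts14, an amino-propeptidase, was among them each time, at -0.86, -1.12, -0.69 and -0.96. With PMA on normal diet, Tll1 had the largest fall of those at 5 CPM or more. Of 12 elastic fibre genes, which include the substrates and scaffolds of Lox and Loxl1, 3 fell with diet and 4 with diet under PMA. Fn1 had the largest called fall in both. Elastin itself (Eln) went from 163 to 104 CPM (log2 -0.64) and from 110.1 to 59.1 CPM (log2 -0.90). With PMA, 4 fell and 1 rose on each diet. Mfap2 and Mfap4 were among the falls on both diets. Eln was at -0.56 and -0.81, and Efemp2, the fibulin that brings Lox to elastin, rose by 0.87 and 0.77.

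Of the 5 cofactor supply genes, 0 passed in either diet comparison, Slc31a1, the copper importer, rose with PMA on normal diet (0.35, edgeR adjusted p = 0.0474), and Tfrc, the transferrin receptor, rose with PMA on high-fat diet from 60.0 to 104 CPM (0.80). In the TGF-beta pathway list, Tgfb3, a ligand, fell in all 4 comparisons, by 0.63 and 0.72 with diet and by 0.69 and 0.78 with PMA; Tgfbi, a secreted target, fell by 0.59 with diet under PMA and rose by 0.48 with PMA on normal diet, and the other 9 of the 11 did not pass. Hypoxia-responsive genes other than the members were followed because P4ha1, P4ha2 and Plod2 are known targets of the hypoxia-inducible factors. Of 15, 6 rose and 2 fell with PMA on normal diet, and 7 rose on high-fat diet. Eno1 was at 1.26 and 1.14 there, and Pgk1 at 1.15 and 1.37. With diet, 1 rose in untreated skin (Eno1, 0.58) and 3 under PMA (Egln3 1.14, Pgk1 0.72, Pdk1 0.66). For comparison, PMA had 8.96% of all tested genes called higher and 3.99% lower on normal diet, and 7.34% and 4.6% on high-fat diet. Over the same PMA comparisons, P4ha1 had 0.22 and 0.09, P4ha2 0.06 and 0.65, and Plod2 -0.36 and 0.04. The other enzymes ran from -0.82 (Loxl2) to 0.82 (Plod3) on normal diet and from -0.63 (Loxl4) to 0.49 (Plod3) on high-fat diet.

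**Figure D4:**
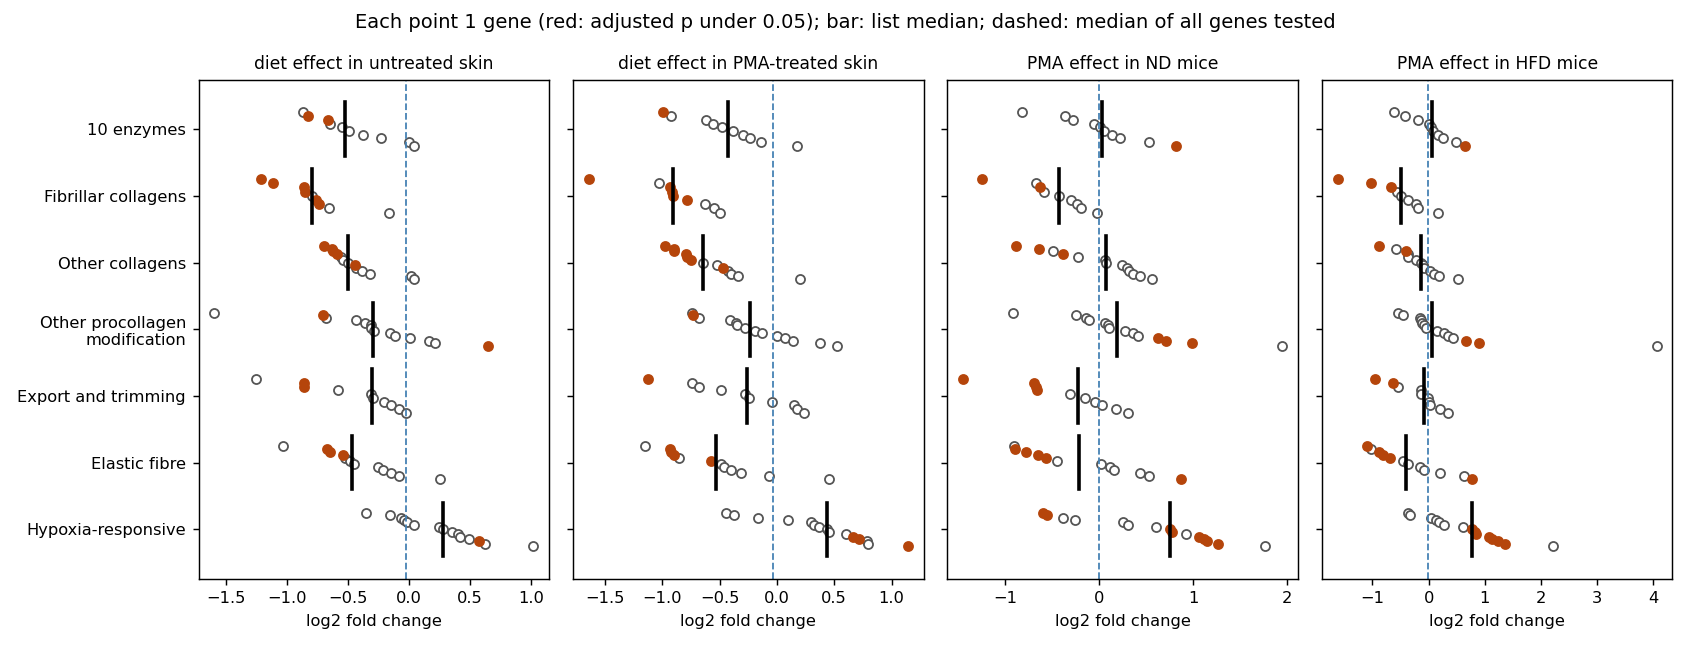
Log2 fold changes of the tested genes of 6 pathway lists below the 10 enzymes, 1 point per gene (red where edgeR adjusted p was under 0.05), with a bar at the list's median and a dashed line at the median of all tested genes, in the 4 comparisons, each panel on its own scale. Fibrillar collagens lie below 0 in both diet panels (medians -0.80 and -0.90), and the hypoxia-responsive genes have medians of 0.76 and 0.78 in the PMA panels.

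The enzymes were also set against the collagen they modify, by dividing each gene's CPM by the sum of Col1a1, Col1a2 and Col3a1 in the same library; this ratio was chosen after the values were seen and is a description. The collagen sum averaged 7132 ± 1367 CPM in ND, 3663 ± 546 in HFD, 4928 ± 1482 in ND+PMA and 2692 ± 766 in HFD+PMA. With diet in untreated skin, the mean ratio of all 10 enzymes was higher in HFD. The collagen sum fell there, so a gene of unchanged level also gains in ratio. The share of all genes with a higher mean ratio was not counted, so this is no trait of the enzymes. Of the 10, 2 (Plod3 and P4ha1) were higher without overlap between groups, beside 47.9% of all tested genes. P4ha2 was at 5.89 ± 0.85 per 1000 collagen CPM in ND and 6.49 ± 0.31 in HFD, and Lox at 15.7 ± 3.22 and 19.2 ± 4.83. With diet under PMA, 2 enzymes (Plod3 and P4ha2) did not overlap, beside 27% of genes. With PMA, the ratio was higher without overlap for 5 enzymes on normal diet (Loxl1, Plod1, Plod3, P4ha1 and P4ha2), beside 17.2% of genes, and for 1 on high-fat diet (P4ha2), beside 15.8%. P4ha2 read 6.34, 4.64, 6.46 and 6.14 per 1000 collagen CPM in ND, 9.42, 7.50, 9.74 and 9.66 in ND+PMA, 6.08, 6.67, 6.45 and 6.77 in HFD, and 13.2, 19.4, 9.91 and 16.1 in HFD+PMA. In P4ha2 all PMA-treated libraries were thus above all untreated ones on either diet. The share of all tested genes with such a split was not counted. The mean collagen sum was lower with PMA on each diet, while P4ha2 itself differed by log2 0.06 with PMA on normal diet. On normal diet, PMA and series cannot be told apart.

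**Figure D5:**
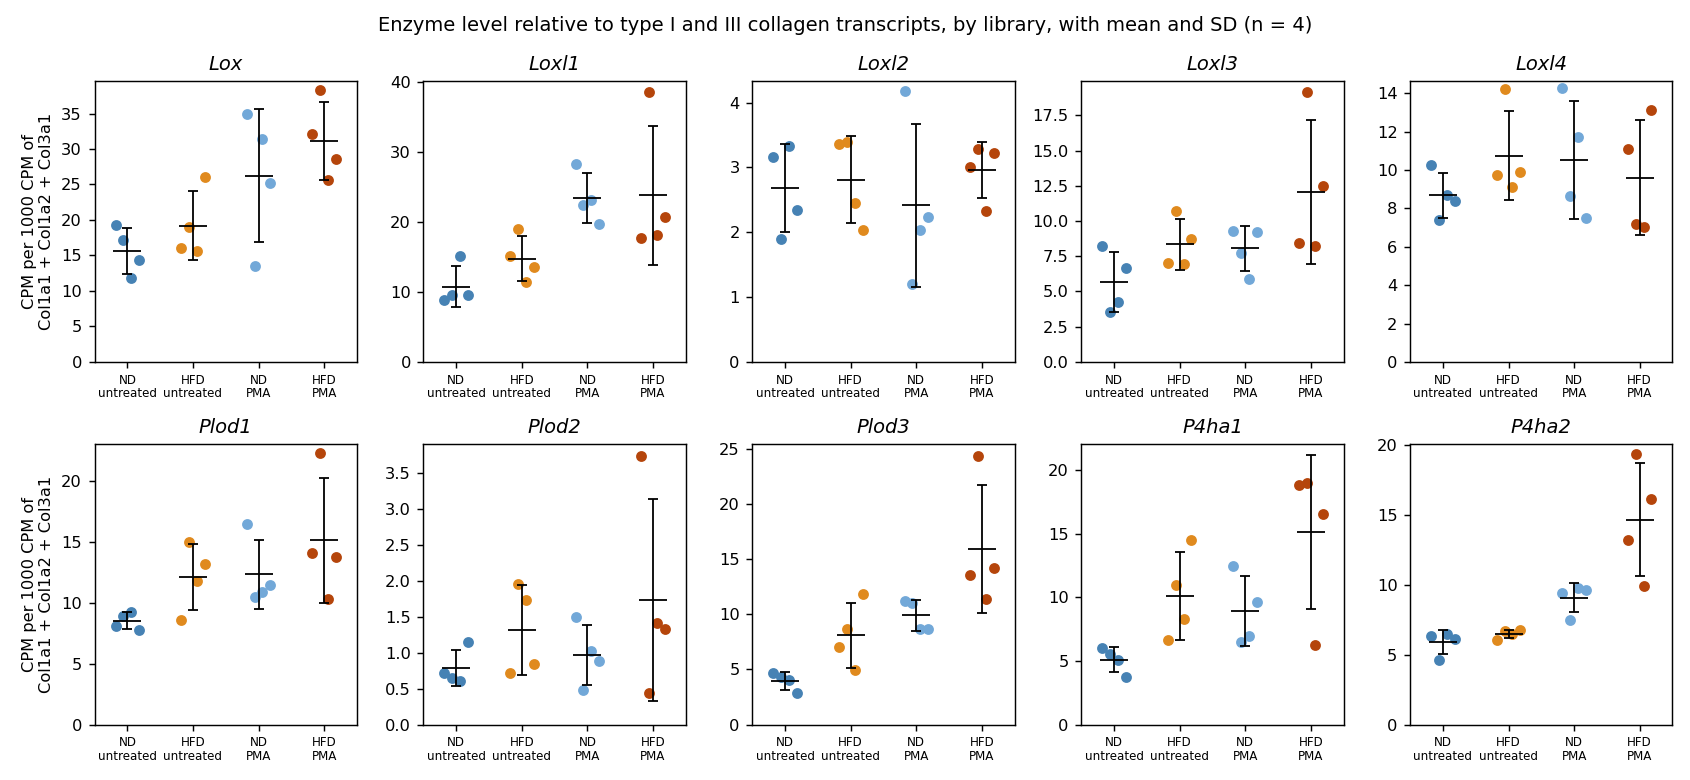
Each enzyme's CPM per 1000 CPM of type I and III collagen transcripts (Col1a1, Col1a2 and Col3a1) in each library (points), with group mean and SD (bars), in the 4 groups of 4, each panel on its own axis from 0. The P4ha2 points of both PMA groups, 7.50 and above, lie over all untreated points, 6.77 and below. The mean collagen sum used as divisor is lower with PMA on each diet. The share of all tested genes with such a split was not counted.

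Set against the summed fibroblast markers instead, Lox stood at 31.7 ± 6.14 per 1000 marker CPM in ND and 24.7 ± 3.92 in HFD, and P4ha2 at 12.6 ± 5.05 and 8.51 ± 1.20, with overlapping ranges for both. Fibroblast markers were called lower for 1 of 8 (Lum) with diet in untreated skin and for 1 of 8 (Mfap5, also in the elastic fibre list) under PMA, while 7 of 8 and 8 of 8 had negative values, with medians of -0.46 and -0.33 beside -0.52 and -0.43 for the enzymes. Keratinocyte markers were called higher with diet for 4 of 7 and 1 of 7. Macrophage markers were called lower with diet for 1 of 5 and 2 of 5 (medians -0.54 and -0.69), and endothelial markers for 0 of 5 in both (medians -0.57 and -0.81). Hair shaft markers had median log2 differences with diet of 6.16 and 4.47, with 1 of 6 and 0 of 6 called, and summed to 2.47 to 27.5 CPM in ND, 41.6 to 1521 in HFD, 1.66 to 82.0 in ND+PMA and 34.1 to 1962 in HFD+PMA. Loxl4 under PMA was at 19.9 ± 6.30 per 1000 fibroblast marker CPM on normal diet and 12.1 ± 4.75 on high-fat diet. These ranges overlapped. Per 1000 collagen CPM, Loxl4 was at 10.5 ± 3.06 and 9.61 ± 3.01, also with overlap. In that comparison 4 of 5 tested cartilage markers fell. The cartilage marker sum ranged from 283 to 442 CPM in ND+PMA and from 169 to 228 in HFD+PMA. A further cartilage marker, Matn1, was at 0 in all groups. Neutrophil markers rose with PMA for 4 of 4 tested on each diet, and macrophage markers for 3 of 5 and 2 of 5, while Ly6g was at 0 in all groups but HFD+PMA. Adipocyte markers fell with PMA for 4 of 4 and 3 of 4. What part any of these cell type differences had in the enzyme levels was not tested.

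The genes whose pattern was most like each enzyme were found over the 16 libraries as the smallest root mean square difference in log2 CPM centred on each gene's own mean, among 12404 tested genes of at least 5 CPM; libraries share their depth and composition, so these are descriptions. Plod1 had the closest, Vmac (0.15) and Itga7 (0.15), and Lox was nearest to Swap70 (0.19) and Wdr91 (0.21). P4ha2 was nearest to Ext2 (0.20) and Elmo2 (0.20), P4ha1 to Taf6 (0.19) and Depdc5 (0.21), Plod3 to Ino80e (0.22) and Tinagl1 (0.22), and Loxl3 to Vars2 (0.21) and Atp9b (0.22). Loxl1 was nearest to Kcnab2 (0.25) and Col4a1 (0.27), a basement membrane collagen chain, Loxl4 to Timm10b (0.26) and Scube1 (0.27), Loxl2 to Lrrc61 (0.26) and Limch1 (0.29), and Plod2, with its low counts, to Atg4c (0.48) and Pfkfb1 (0.50). Within the 10, the closest pairs were Lox with Plod1 (0.35) and P4ha2 with Lox (0.36). Loxl1 and Loxl3 with Plod1 were also at 0.36, P4ha1 with Plod1 at 0.39 and Loxl2 with Loxl4 at 0.40. A gene of unchanging level would lie at 0.37 from Lox and 0.36 from Plod1, so their 0.35 is hardly closer. In no case was another enzyme among a member's 2 nearest genes.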

How the data were processed

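Whole ear skin of 16 mice was sequenced as SMART-Seq2 and Nextera XT libraries, without strand or molecular identifiers, per the labels' protocols. The authors deposited raw counts per gene (48440 genes). Per the submitters' processing notes, the tools included STAR 2.3 and featureCounts 1.5, with GRCm38 and mm10 as builds; the sources used here do not give the settings or the annotation release. Groups came from the sample titles. Genes were filtered with filterByExpr (minimum count 10, minimum total 15) and scaled by TMM. They were tested in 1 edgeR 4.0.16 quasi-likelihood fit of the 4 group means in R 4.3.3. Benjamini-Hochberg adjustment was over 17604 genes, with a threshold of 0.05. The procedure was also run on simulated counts with seeded differences. Those counts held no library series and no added outlying library, so that run cannot speak to either. CPM are TMM-scaled. Alternatives used DESeq2 1.42.0, other scalings, filters, fits, series, replicate blocks and left-out libraries. The 24 replicate pairs within groups all differed by more than sampling noise. The 10 enzymes and the gene lists were chosen with earlier results of these data known. All 10 enzymes are named in every comparison. From each pathway list, some of the up to 3 called genes of at least 5 CPM with the largest change are named. Others are named by role, so a named gene is not always among the largest changes of its list. Gene intervals are from GENCODE M21. Reads without molecular identifiers are not independent molecules, so count limits cover counting error only.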

Additional observations from a re-analysis of the deposited data

Results flagged for a closer look

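In 40 gene-by-group sets of 4 libraries, 2 had a library far from the other 3 by Dixon's gap test, where chance gives about 1 in 20. Loxl2 in ND+PMA replicate 1 read 15.8 CPM, with the other 3 between 8.49 and 9.56 CPM. Plod3 in ND+PMA replicate 2 read 78.0 CPM, with the other 3 between 37.0 and 42.3 CPM. The same library also read highest of its group for Loxl1 (159 CPM), Loxl3 (55.0 CPM), Loxl4 (61.2 CPM), Plod1 (74.0 CPM) and P4ha2 (53.2 CPM) and lowest for Lox (96.3 CPM), Loxl2 (8.49 CPM) and Plod2 (3.41 CPM), and it had the highest collagen sum of the ND+PMA group, at 7094 CPM.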

How the results depend on the processing

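Of 880 values of the 10 enzymes under the alternatives, 768 kept their direction and side of the threshold. Another 21 lost a call, 16 gained one and 75 changed sign, none of the last a called value. Only called values can lose a call. For diet in untreated skin, Lox lost its call in 5 of 16 alternatives and P4ha2 in 2 of 16. Loxl4 lost it in 6 of 16 for diet under PMA. Plod3 lost it in 5 of 16 for PMA on normal diet, and P4ha2 in 3 of 17 on high-fat diet. The cause was not tested. Group levels moved less than 1 SD under RLE scaling in 40 of 40. DESeq2 called 1208 genes for diet in untreated skin (691 in edgeR), 890 for diet under PMA (387) and 23 for the interaction (1); it called 3 enzymes for diet in untreated skin, 4 for diet under PMA and 2 for PMA on normal diet. RLE scaling called 2 enzymes for PMA on normal diet. A filter of 5 CPM in 4 libraries called 2 enzymes in each of diet under PMA, PMA on normal diet and PMA on high-fat diet. That filter, no filter and the series covariate each called 2 interaction genes. The series covariate left 0 enzymes and 179 genes for diet in untreated skin and 0 enzymes and 453 genes for PMA on normal diet. Fits of 8 libraries alone called 3 enzymes for diet in untreated skin (Loxl4 added) and left 0 enzymes and 175 genes for diet under PMA, and 0 enzymes for PMA on normal diet (Plod3 edgeR adjusted p = 0.0567). The labels do not say that a replicate number marks a shared source, and same-numbered samples' deviations correlated from -0.07 to 0.20, so the numbers were not used as pairs. Of the 16 libraries, 8 and not all matched their own number best among the other groups. How many would do so without pairing was not worked out, and the median correlations by number were from -0.05 to 0.03. At most this is a weak hint of pairing from the data and not from the design. With the replicate block, 2 enzymes were called for diet under PMA (Loxl1, edgeR adjusted p = 0.0459, and Loxl4) and 2 interaction genes; no other call of an enzyme changed. Under it, Loxl3 was at -0.030 (PMA, normal diet) and 0.031 (interaction) and Plod2 at -0.16 (PMA, high-fat diet).

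Leaving out 1 library at a time gave 1 to 3 enzymes and 336 to 636 genes for diet in untreated skin, 0 to 1 and 116 to 307 for diet under PMA, 0 to 2 for PMA on normal diet, 0 to 1 and 1205 to 2139 for PMA on high-fat diet, and 1 to 4 interaction genes. Over these, values whose sign changed ranged as follows. For diet in untreated skin Plod3 ranged from -0.10 to 0.19, P4ha1 from -0.13 to 0.10 and Plod2 from -0.45 to 0.10; under PMA Plod3 from -0.41 to 0.065, Plod2 from -0.48 to 0.55 and P4ha1 from -0.31 to 0.085. For PMA on normal diet Loxl3 ranged from -0.24 to 0.19, P4ha2 from -0.091 to 0.17 and Plod1 from -0.22 to 0.048; on high-fat diet Loxl3 from -0.14 to 0.094, Plod2 from -0.66 to 0.38 and P4ha1 from -0.13 to 0.26. For the interaction Loxl3 ranged from -0.18 to 0.24, Plod1 from -0.24 to 0.036, P4ha1 from -0.32 to 0.075, Plod3 from -0.47 to 0.013 and Plod2 from -0.27 to 0.77.

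Loxl3 for PMA on normal diet, PMA on high-fat diet and the interaction was at -0.036, -0.010 and 0.026 in DESeq2, -0.035, -0.0099 and 0.025 under RLE, -0.016, -0.0024 and 0.014 under TMM without mitochondrial genes, -0.020, -0.0053 and 0.014 without a filter, and -0.033, -0.028 and 0.0049 under the 5 CPM filter; on 8 libraries alone the first 2 were at -0.024 and -0.0079, and within RHP the second at -0.0069. P4ha1 for diet in untreated skin was at 0.0100 without a filter, 0.0024 under the 5 CPM filter and 0.0034 on 8 libraries. With the covariate P4ha1 was at -0.21 (PMA, normal diet), -0.0079 (PMA, high-fat diet) and 0.20 (interaction), Plod2 at -0.11 (PMA, high-fat diet), and the interaction of Loxl2 at -0.072 and of Plod1 at 0.12. Within RHP, PMA on high-fat diet gave Plod2 -0.12 and P4ha1 -0.017. Depth limits Plod2 most, at 11 reads in its smallest library.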
